A study of Mus musculus with 6 samples.

Results

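Mitochondrial ribosomal protein genes were examined in liver RNA from 3 WT mice and 3 Hom mice. Members were chosen by name alone, as every gene whose symbol is Mrpl or Mrps followed by a number and at most 1 letter, which gave 78 of the 17975 genes in the table. The rule reads the symbol only. Hom mice carry NEK7 fl/fl and Alb-Cre, so that the albumin promoter drives Cre and deletes Nek7 in hepatocytes, on a B6 background. RNA came from whole liver tissue, in which the other cell types keep the gene, with 1 liver per mouse. Ages are stated for mice of the work, but the sources used here tie none to these livers, and no agent is named for them. The comparison asks which genes differ in level when hepatocytes lack NEK7, a serine/threonine kinase known from mitosis and from the NLRP3 inflammasome.

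The mitochondrial ribosome, or mitoribosome, sits in the mitochondrial matrix and makes the few proteins that mitochondrial DNA still encodes, which are core parts of the respiratory complexes and of ATP synthase. Its ribosomal RNAs come from mitochondrial DNA, whereas its proteins are encoded in the nucleus, made on cytosolic ribosomes and imported. Mrpl genes are named for the large subunit, which joins amino acids, and Mrps genes for the small subunit, which reads the messenger RNA. Many of the proteins have a bacterial counterpart, and others are found only in mitochondria. Hepatocytes are rich in mitochondria, and cells need the nuclear and the mitochondrial parts of the respiratory chain together.

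Promoters of the 78 genes were read first, because nuclear genes for mitochondrial proteins are known to share binding sites for a few factors. RefSeq promoters (GRCm38.p6, 250 bases before to 50 bases after the gene start) were found for 69 members. The search covered both strands for the motif of NRF1 (the letters GCGCA, any base, then GCGC), that of ETS factors such as GABP (CCGGAAG), of YY1 (AAGATGG followed by CGGC) and of the estrogen-related receptors, ERR (TCAAGGTCA). An NRF1 match was present in 13 of the 69 promoters (18.8%), against 5.19% of all 27025 promoters in the RefSeq table and 10.6% of the promoters of genes tested here. ETS matches were present in 26 (37.7%, against 9.93% and 18.6%). YY1 matches were present in 5 (7.25%, against 0.755% and 1.64%). None of the 69 held the ERR letters, which 0.466% of all promoters hold. Altogether 38 member promoters (55.1%) held at least 1 of the motifs, against 14.9% of all promoters and 28.2% of those of tested genes, and 4 held both NRF1 and ETS letters. These are matches of letters, not measured binding.

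The windows printed here are the 120 bases before the gene start, 5′ to 3′ on the strand of the gene, with a match in capitals. Mrpl17, Mrpl9 and Mrpl12 (lower in Hom livers, as given further on) and Mrpl32 (not past the threshold) show the NRF1 letters, and Mrpl12 was also 1 of the 2 members with the highest level.
Mrpl17: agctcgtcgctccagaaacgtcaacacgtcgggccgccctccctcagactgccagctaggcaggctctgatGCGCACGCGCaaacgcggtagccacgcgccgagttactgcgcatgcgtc
Mrpl9: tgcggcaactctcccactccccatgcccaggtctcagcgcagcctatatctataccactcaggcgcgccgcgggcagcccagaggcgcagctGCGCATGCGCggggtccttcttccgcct
Mrpl12: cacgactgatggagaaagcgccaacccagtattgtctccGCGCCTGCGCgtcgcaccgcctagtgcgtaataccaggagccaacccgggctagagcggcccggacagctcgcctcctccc
Mrpl32: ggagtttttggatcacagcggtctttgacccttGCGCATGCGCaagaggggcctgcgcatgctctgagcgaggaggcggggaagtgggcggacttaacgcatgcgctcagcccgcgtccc
Mrps27 and Mrpl34 (lower) and Mrps18a (not past the threshold) show the ETS letters, and Mrps11 (lower) shows those of YY1.
Mrps27: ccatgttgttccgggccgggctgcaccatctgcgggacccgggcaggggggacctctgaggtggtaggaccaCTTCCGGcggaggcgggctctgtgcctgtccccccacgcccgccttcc
Mrpl34: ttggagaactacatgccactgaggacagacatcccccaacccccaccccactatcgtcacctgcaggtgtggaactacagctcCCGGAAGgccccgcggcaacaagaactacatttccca
Mrps18a: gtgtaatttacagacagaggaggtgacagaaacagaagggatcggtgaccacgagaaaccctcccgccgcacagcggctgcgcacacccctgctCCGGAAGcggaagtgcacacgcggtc
Mrps11: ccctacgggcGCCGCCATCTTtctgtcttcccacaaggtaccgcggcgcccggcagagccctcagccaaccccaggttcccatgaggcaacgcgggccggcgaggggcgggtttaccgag
The windows lie at chr7:105811088-105811207 (Mrpl17, minus strand), chr3:94443216-94443335 (Mrpl9, plus), chr11:120484517-120484636 (Mrpl12, plus), chr13:14613038-14613157 (Mrpl32, minus), chr13:99344666-99344785 (Mrps27, plus), chr8:71464806-71464925 (Mrpl34, plus), chr17:46110884-46111003 (Mrps18a, plus) and chr7:78783011-78783130 (Mrps11, plus). The capitals begin 49 bases before the start in Mrpl17, 28 in Mrpl9, 81 in Mrpl12 and 87 in Mrpl32. They begin 48 bases before it in Mrps27, 37 in Mrpl34, 26 in Mrps18a and 110 in Mrps11. In Mrpl12, Mrps27 and Mrps11 the letters lie on the opposite strand and are printed as their reverse complement.

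The values are estimated counts, which the authors' software assigned to each gene and which need not be whole numbers. They summed to between 19349418 and 19730236 per liver. Of the 17975 genes, 13805 had enough counts to be tested, and all 78 members were among them, with 89 to 1590 counts in any liver. Levels per liver are given as CPM, which are counts per 1000000 counts after TMM scaling. TMM scaling sets most genes level between libraries, with factors of 0.806 to 0.924 in WT and 1.09 to 1.23 in Hom livers. Differences are log2 fold changes of Hom against WT from edgeR's quasi-likelihood test, and a gene was called lower or higher at a Benjamini-Hochberg adjusted p under 0.05 over all 13805 genes. Nek7, the deleted gene, had 1127, 1077 and 1036 counts in the WT livers and 310, 439 and 387 in the Hom livers (log2 fold change −1.99 with a standard error of 0.10 and adjusted p = 0.000159). Hom replicate 1 stood apart in its Y-linked genes: Ddx3y and Kdm5d were at 0 counts there and at 243 or more in the remaining 5 livers. The members' summary is therefore also given without that liver. In bulk tissue, fewer cells of a type and less RNA per cell cannot be told apart.

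With TMM scaling and all 6 livers, most mitoribosomal protein genes were lower in Hom livers, each by a modest amount, and none was higher. Of the 78 members, 42 (53.8%) were called lower and 0 higher, where 20.1% of all tested genes were called lower and 21.5% higher. The other 36 did not pass the threshold. The median log2 fold change of the members was −0.35, against −0.0018 for all tested genes. Values ran from −0.80 (Mrps10) to 0.08 (Mrpl19), and 76 of the 78 were below 0. No member fell by a log2 of 1 or more, and 12 were under −0.5. Every Hom liver lay below every WT liver for 55 members, the 42 called and 13 others, where 27.0% of all tested genes had this order. For 0 members did every Hom liver lie above every WT liver (28.7% of all tested genes). Without Hom replicate 1, 43 members were lower, 37 of them among the 42, and the median was −0.38. Leaving out Hom replicate 3 left 23 lower, Hom replicate 2 25, and WT replicate 2 or WT replicate 3 29 each, and 0 were higher in each case. Of all genes, 2546, 1829 and 1767 were lower without Hom replicates 1, 2 and 3 in turn. Without WT replicates 2 and 3 in turn 1959 and 2217 were lower, against 2780 with all livers.

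**Figure D1:**
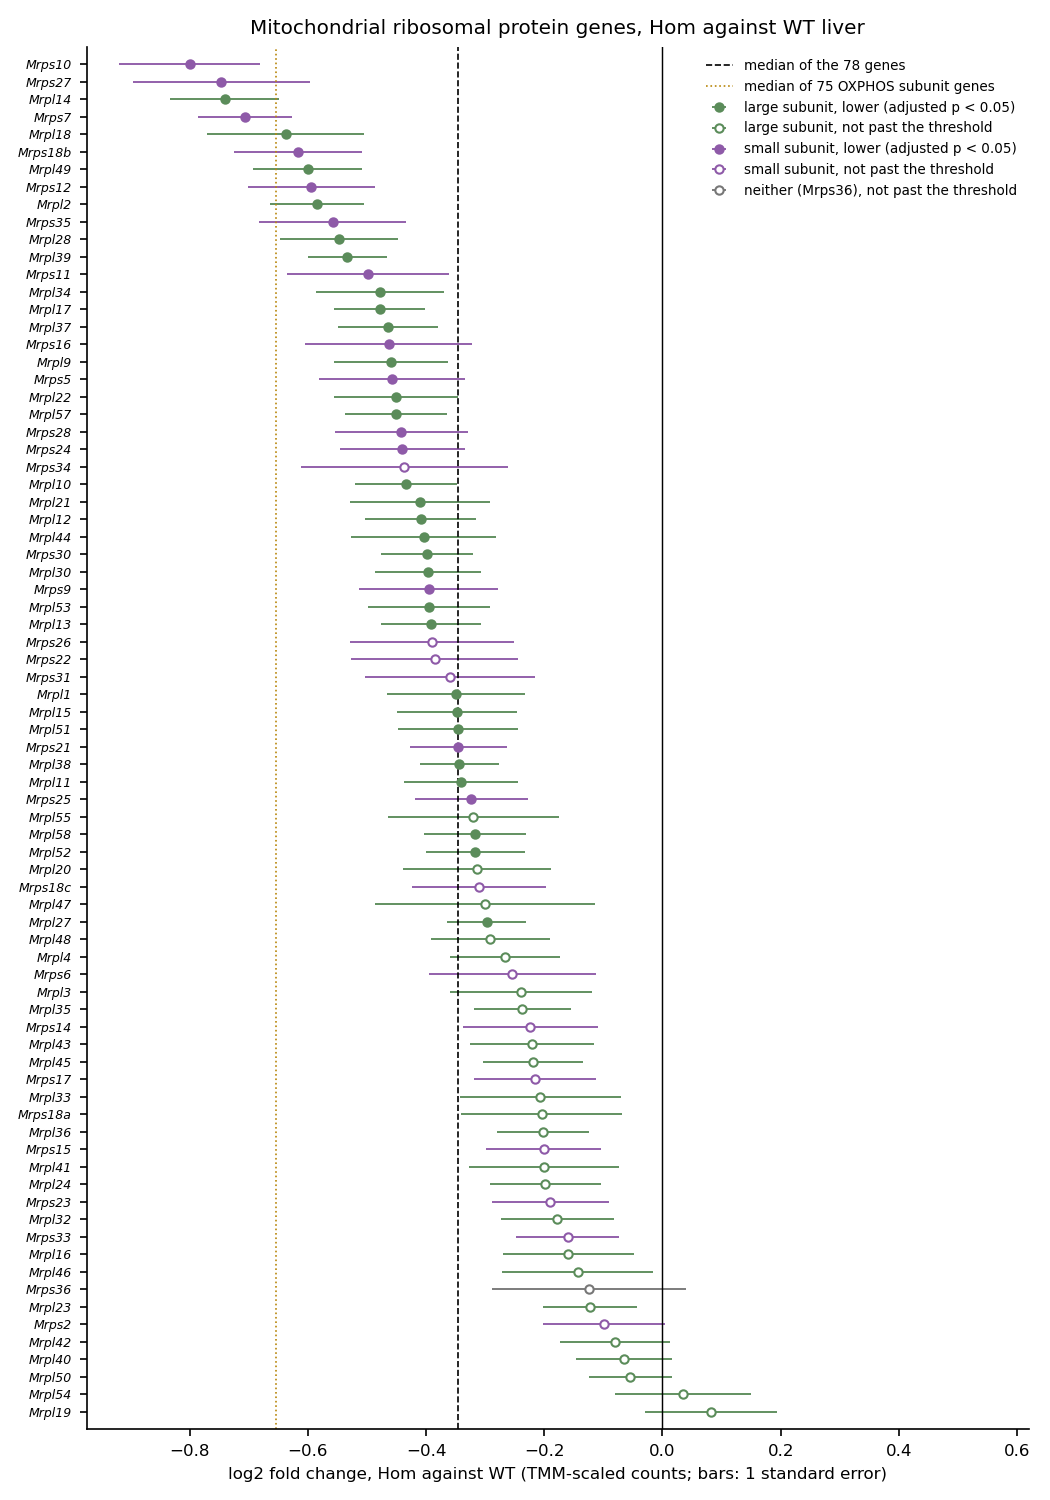
Log2 fold change of Hom against WT liver (TMM-scaled counts) for each of the 78 genes, with 1 standard error, in order of value. Filled points passed the threshold (42 genes, all below 0) and open points did not; the dashed line is the median of the 78 genes (−0.35) and the dotted line that of 75 OXPHOS subunit genes (−0.65), and the genes run from −0.80 for Mrps10 to 0.08 for Mrpl19.

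The size of these differences was tied to the scaling between libraries. Under library size alone, with no correction for composition, 2 members were lower and 9 higher (4.65% and 47.6% of all tested genes). The members' median was then 0.11 and that of all genes 0.45. A change of scaling factors moves every gene by about the same amount, so the members' distance from the median of all genes, −0.34, is the same under both by construction. A correction of each library for gene length left 25 members lower (20.8% of all genes) and 0 higher (20.6%), 24 of them among the 42, at −0.21 relative to all genes. Member transcripts were short, with a median length implied by the deposited values of 1027 bases against 2863 for all tested genes. In the sense used here, lower means lower in Hom than in WT livers, relative to how most genes changed. The 17 members lower in the main fit and in 13 other fits, which leave out library size alone and the minimum fold change, were Mrpl2, Mrpl9, Mrpl10, Mrpl14, Mrpl17, Mrpl18, Mrpl28, Mrpl37, Mrpl39, Mrpl49, Mrpl57, Mrps7, Mrps10, Mrps12, Mrps18b, Mrps27 and Mrps35.

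Among the 8 called members with the lowest fold changes, 5 are small subunit proteins. Mrps10 is a protein of the head of the small subunit with a bacterial counterpart, on chromosome 17 from 47368887 to 47381417 (GRCm38, GENCODE M21). It had 26.9, 30.7 and 29.9 CPM in the WT livers and 18.2, 17.8 and 14.2 CPM in the Hom livers. All Hom livers lay below all WT livers, and Hom replicate 3 was the lowest. The mean fell from 29.1 ± 2.00 to 16.7 ± 2.18 CPM (SD, n = 3), a log2 fold change of −0.80 (with a standard error of 0.12, edgeR adjusted p = 0.00281). It was 1 of the 2 members, with Mrps7, still lower under library size alone.

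Mrps7, which binds the small ribosomal RNA in the head, had 53.1, 55.9 and 58.3 CPM in WT livers and 36.2, 34.1 and 32.2 CPM in Hom livers. The groups were far apart relative to their spread, and the log2 fold change was −0.71 (standard error 0.08, edgeR adjusted p = 0.00112). In GENCODE M21, 11.9% of its exon bases are shared with the neighbours Gga3 and Mif4gd, and the sources used here do not say whether the counting used strand to tell such reads apart. Mrps27, a mitochondria-specific protein of the pentatricopeptide repeat family, had 30.1, 37.0 and 45.3 CPM in WT livers and 23.6, 20.9 and 22.5 CPM in Hom livers. Its WT livers were widely spread, yet the lowest of them was above every Hom liver (log2 fold change −0.75 with a standard error of 0.15, edgeR adjusted p = 0.00841), and 24.2% of its exon bases are shared with 6430562O15Rik.

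Mrps12 belongs to the decoding centre, where codon and tRNA are matched. It stood at 32.7, 32.2 and 34.0 CPM in WT livers and 25.2, 20.4 and 20.0 CPM in Hom livers, with Hom replicate 1 nearest to WT (log2 fold change −0.59, adjusted p = 0.00569). Mrps18b is 1 of 3 mammalian relatives of bacterial S18. Its 54.3, 59.2 and 64.0 CPM in WT livers stood above 42.7, 39.0 and 34.1 CPM in Hom livers, without overlap (log2 fold change −0.62, adjusted p = 0.00513). Of its exon bases, 30.5% are shared with Gm16279.

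On the large subunit, Mrpl14 lies at the face that meets the small subunit. It had 42.7, 35.9 and 38.5 CPM in WT livers and 22.5, 24.8 and 22.7 CPM in Hom livers, 59.8% of the WT mean (log2 fold change −0.74 with a standard error of 0.09, edgeR adjusted p = 0.00151). Mrpl18 is part of the central protuberance, the crest of the large subunit. WT replicate 1 was high for this gene at 63.1 CPM, with 46.9 and 48.8 CPM in the other WT livers, and the Hom livers held 36.7, 31.0 and 34.4 CPM (log2 fold change −0.64, adjusted p = 0.00954). Mrpl49 is mitochondria-specific. Its WT livers agreed closely at 28.8, 27.5 and 29.0 CPM, and its Hom livers had 17.4, 18.2 and 20.6 CPM (log2 fold change −0.60, adjusted p = 0.0031). Shared exon bases made up 11.2% for Mrpl14 (with Tmem63b), 10.1% for Mrpl18 (with Tcp1) and 4.85% for Mrpl49 (with Syvn1), and none were annotated for Mrps10 and Mrps12.

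**Figure D2:**
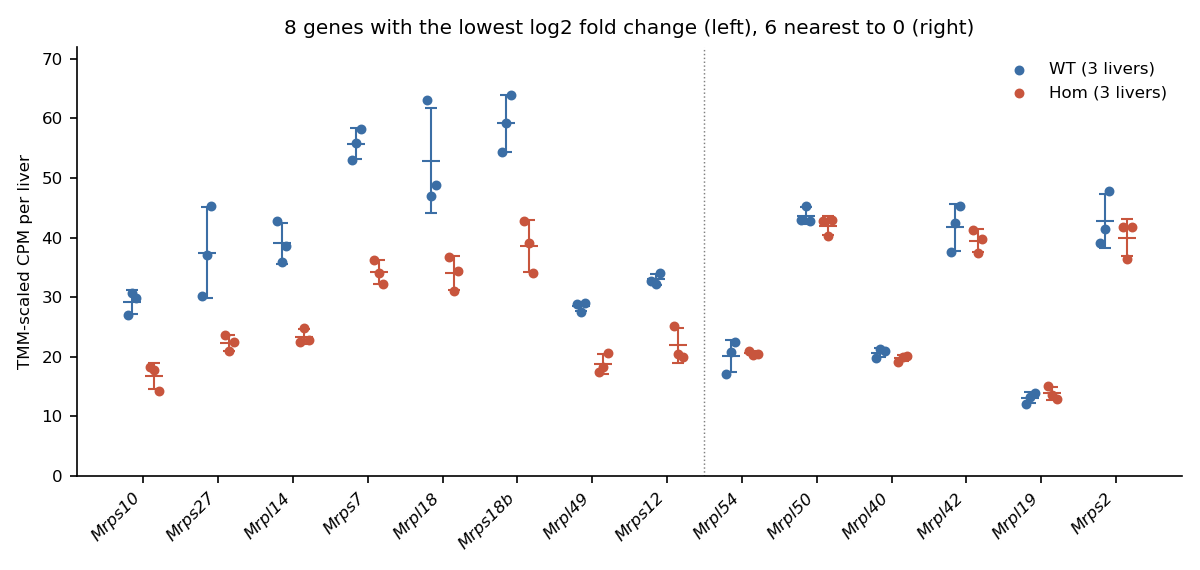
TMM-scaled CPM in each liver (points), with mean and SD (n = 3), for the 8 called genes with the lowest log2 fold change and, right of the dotted line, the 6 genes within 0.1 of 0. WT and Hom points are separate for each of the 8 genes at left and overlap for each of the 6 at right; the y axis starts at 0.

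At the other end, 6 members had log2 fold changes within 0.1 of 0. Mrpl50 was among the most counted of them, with 42.9, 45.3 and 42.7 CPM in WT livers and 42.8, 40.2 and 43.0 CPM in Hom livers. These values overlapped (log2 fold change −0.05 with a standard error of 0.07, edgeR adjusted p = 0.565). Mrps2, a small subunit protein with a bacterial counterpart, had 39.1, 41.4 and 47.8 CPM in WT and 41.8, 36.4 and 41.8 CPM in Hom livers, also overlapping (−0.10, adjusted p = 0.473). Mrpl42 had 37.5, 42.4 and 45.3 CPM in WT and 41.3, 37.4 and 39.7 CPM in Hom livers (−0.08, adjusted p = 0.518).

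Mrpl19 and Mrpl54 were the 2 members above 0. Mrpl19 had 12.1, 13.2 and 13.9 CPM in WT livers and 15.1, 13.5 and 12.9 CPM in Hom livers, and 36.0% of its exon bases are shared with Gcfc2. Mrpl54 had 17.1, 20.7 and 22.4 CPM in WT livers and 20.9, 20.2 and 20.5 CPM in Hom livers. Neither group order was clear for either gene (adjusted p = 0.583 and 0.827). Standard errors of these genes were 0.11 each, close to the members' median of 0.10. A member that was not called may still differ.

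The other 9 of the 12 most counted members without a call missed the threshold with negative values. Mrps34 had the lowest of them at −0.44 (adjusted p = 0.0841), with 39.9, 30.2 and 36.6 CPM in WT and 33.0, 23.7 and 22.2 CPM in Hom livers. Hom replicate 1 overlapped the WT livers, and without it Mrps34 was lower (−0.63, adjusted p = 0.0156). Exons of Mrps34 share 77.8% of their bases with Mapk8ip3 and Nme3. Mrpl4, Mrpl20 and Mrps31 stood at −0.27, −0.31 and −0.36 (adjusted p = 0.0566, 0.0844 and 0.0832). Without Hom replicate 1, Mrpl4 and Mrpl20 were also lower (−0.34 and −0.45, edgeR adjusted p = 0.0327 and 0.0175), and Mrps31 was not (0.0613). Mrpl43, Mrps17, Mrps15 and Mrpl45 lay between −0.22 and −0.20, and Mrpl24 at −0.20 (adjusted p = 0.0742 to 0.135 for these 5).

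By subunit, counts were alike. The large subunit holds 51 of the proteins, and 28 of its genes (54.9%) were lower, with a median of −0.32. The small subunit holds 26, of which 14 (53.8%) were lower, with a median of −0.39. Counts of the large subunit per 1000 counts of the small subunit within the same liver were 2291, 2248 and 2148 in WT and 2283, 2404 and 2404 in Hom livers, which overlapped. Of 46 members with a bacterial counterpart 27 (58.7%) were lower (median −0.35), and of 30 mitochondria-specific members 14 (46.7%) were lower (median −0.34). The difference between these shares was not tested.

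Parts of the large subunit showed a spread within each. In the L7/L12 stalk, which brings translation factors to the ribosome, 4 of 5 members were lower. Mrpl12, the stalk protein itself, had 86.7, 87.2 and 85.4 CPM in WT livers and 73.5, 61.5 and 60.3 CPM in Hom livers, with no overlap (log2 fold change −0.41 with a standard error of 0.09, edgeR adjusted p = 0.0136). Its call was lost without Hom replicate 2 or Hom replicate 3 (edgeR adjusted p = 0.0504 and 0.0516). It was also lost with a term for replicate number plus the gene length correction (0.0803). Mrpl10, Mrpl53 and Mrpl11 stood at −0.43, −0.39 and −0.34 (adjusted p = 0.00817, 0.0214 and 0.0283), and Mrpl54, a mitochondria-specific protein at the stalk, was the exception at 0.03. Exons of Mrpl53 share 88.0% of their bases with other annotated genes.

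In the central protuberance 4 of 9 members were lower, from Mrpl18 at −0.64 through Mrpl38, Mrpl52 and Mrpl27 at −0.34, −0.32 and −0.30. With upper-quartile in place of TMM factors, the Mrpl52 call was lost (edgeR adjusted p = 0.0625). The 5 that did not pass ran from −0.32 (Mrpl55) to −0.07 (Mrpl40). Around the exit of the polypeptide tunnel, where the new chain leaves toward the inner membrane, 4 of 8 were lower. They were Mrpl39, Mrpl17, Mrpl22 and Mrpl44, at −0.53, −0.48, −0.45 and −0.40. Mrpl45, which holds the ribosome to the inner membrane, stood at −0.22 (adjusted p = 0.0742).

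Several symbols do not match the place of the protein. Mrps30 is part of the large subunit despite its name, and it had 25.8, 25.7 and 25.2 CPM in WT and 20.2, 18.4 and 19.6 CPM in Hom livers (log2 fold change −0.40, adjusted p = 0.00772). Mrps18a, also a large subunit protein, had 22.1, 30.0 and 29.5 CPM in WT and 21.3, 24.9 and 24.5 CPM in Hom livers, which overlapped (−0.20, adjusted p = 0.264). Mrps18c, which takes the place of bacterial S18 in the small subunit, stood at −0.31 with all Hom livers below all WT livers (adjusted p = 0.0641). The 3 relatives of S18 thus ran from −0.62 to −0.20, and the differences between them were not tested. Without WT replicate 1, the lowest WT liver for both genes, Mrps18a and Mrps18c were called lower. Mrps36, which belongs to the oxoglutarate dehydrogenase complex and not to the ribosome, stood at −0.12 (adjusted p = 0.573), with 8.47 to 11.7 CPM in WT and 8.45 to 10.5 CPM in Hom livers. Mrpl58, a peptidyl-tRNA hydrolase built into the large subunit, was lower at −0.32 (adjusted p = 0.0243).

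A further 5 mitoribosome proteins carry other names. Gadd45gip1 (also CRIF1, at the tunnel exit) had 49.6, 46.6 and 49.3 CPM in WT and 31.5, 28.1 and 33.1 CPM in Hom livers (log2 fold change −0.65, adjusted p = 0.0018). Aurkaip1 and Chchd1, both small subunit proteins, were lower at −0.46 and −0.37 (adjusted p = 0.00951 and 0.0178). Ptcd3 stood at −0.38 and Dap3 at −0.08, neither past the threshold (adjusted p = 0.0596 and 0.53). Of these 5 genes 3 were thus lower, but 2 with the gene length correction or without WT replicate 2, Hom replicate 2 or Hom replicate 3. Without WT replicate 1, 4 were lower. With these 5 added and Mrps36 left out, 45 of 82 mitoribosome genes were lower (54.9%).

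Compared between genes per length, as the deposited TPM, members spanned a 35.4-fold range in WT livers. Mrpl12 and Mrpl52 were highest, each at a mean of 134 TPM, followed by Mrps21 at 97.1 ± 8.37 TPM (SD, n = 3), with Mrpl42 and Mrpl14 close behind at 95.9 TPM each. Mrpl12 had 152, 126 and 124 TPM and Mrpl52 146, 130 and 127 TPM in the WT livers, so that the order of these neighbours was not clear. The lowest were Mrpl19 (3.78 ± 0.196 TPM), Mrps25 (5.87 ± 0.647 TPM) and Mrpl35 (9.55 ± 0.695 TPM), which did not overlap. Mrpl17 stood close to Mrpl35 at 9.66 TPM, so the order of Mrpl35 and Mrpl17 was not clear. For Mrps25, 69.8% of exon bases are shared with Nr2c2. In WT livers 60 members lay between 20 and 100 TPM. The members' median was 38.8 TPM, against 226 TPM for OXPHOS subunit genes and 414 TPM for cytosolic ribosomal protein genes.

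Ranks by level were much the same in Hom livers. Spearman's rho between WT and Hom mean TPM was 0.974 across the 78 genes, which share libraries and gene lengths and are not independent, and the largest shift was 19 ranks. Deposited TPM carry no correction for library composition, and on this scale 72 of 78 members had a higher mean in Hom livers, with medians of 38.8 TPM in WT and 45.8 TPM in Hom. Mrpl42, for example, had 98.0, 91.4 and 98.3 TPM in WT and 135, 140 and 144 TPM in Hom livers, although its TMM-scaled CPM overlapped. Mrpl14 went from a mean of 95.9 TPM to 87.3 TPM. Summed TPM of the members were 3575, 2986 and 3176 in WT livers and 3790, 3997 and 3866 in Hom livers. The share of all genes with a higher mean TPM in Hom livers was not counted. Library size alone also lacks a correction for composition, and there the median log2 fold change was 0.45 for all genes and 0.11 for the members.

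**Figure D3:**
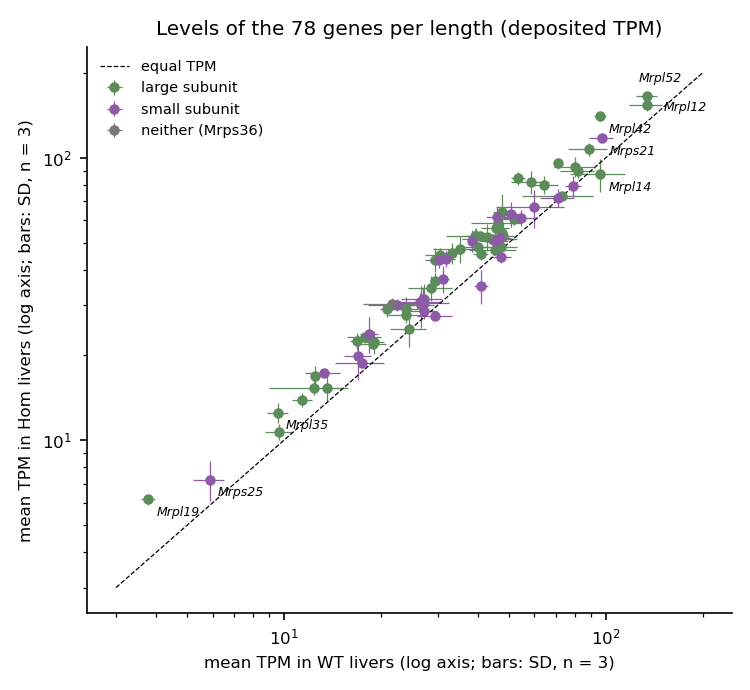
Mean TPM of each of the 78 genes in WT (x axis) and Hom livers (y axis), both on log axes, with SD (n = 3) and the line of equal TPM. Most points lie above the line (72 genes), on a scale without correction for library composition. The order of the genes is largely kept (rho 0.974, largest shift 19 ranks), and Mrpl12 and Mrpl52 stand highest and Mrpl19 lowest in both groups.

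Ratios within a liver need no scaling between libraries. The summed member counts per 1000 counts of nuclear OXPHOS subunit genes were 196, 199 and 204 in WT livers and 248, 252 and 250 in Hom livers. Every Hom liver was above every WT liver, and the mean was 1.25 times higher. OXPHOS subunits, the nuclear parts of the respiratory complexes and ATP synthase, are the partners of the proteins that mitoribosomes make. Of 75 such genes 74 were lower, with a median of −0.65, and 74 had a lower fold change than the members' median. The 1 that was higher was Atpif1, an inhibitor of ATP synthase, at 0.78 (adjusted p = 0.00362). Fold changes of 11 OXPHOS genes were lower than that of Mrps10, the member with the lowest value.

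Among 78 cytosolic ribosomal protein genes, 37 (47.4%) were lower and 0 higher. The number lower was 13 to 21 without WT replicate 1, WT replicate 3, Hom replicate 2 or Hom replicate 3. Their median was −0.29, and Rps2 had the smallest adjusted p (−0.63, adjusted p = 0.00477). Member counts per 1000 cytosolic ribosomal protein counts were 140, 169 and 155 in WT and 153, 143 and 147 in Hom livers, which overlapped. After the gene length correction the cytosolic list had 7 lower, the members 25 and the OXPHOS list 67. Per 1000000 counts of the liver, members held 2094, 1866 and 2038 in WT and 2082, 2177 and 2124 in Hom livers, overlapping as well.

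**Figure D4:**
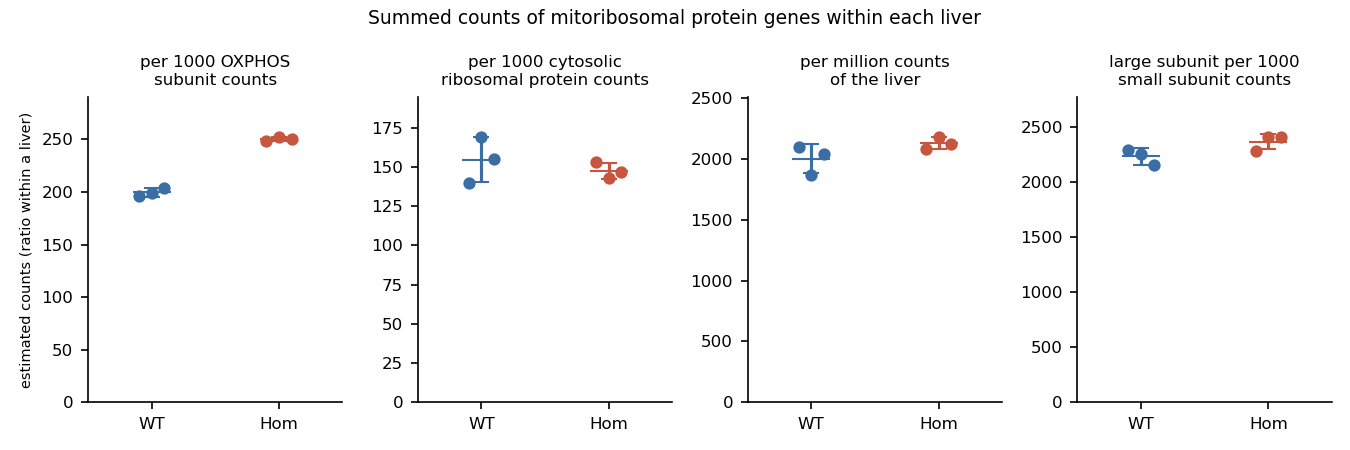
Summed counts of the 78 genes within each liver (points, with mean and SD, n = 3), per 1000 OXPHOS subunit counts, per 1000 cytosolic ribosomal protein counts and per 1000000 counts, and large per 1000 small subunit counts; y axes start at 0. WT and Hom livers are apart only in the first panel (196 to 204 against 248 to 252).

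Other genes of mitochondrial gene expression were lower in part of each list, where 20.1% of all tested genes were lower. Of 23 genes for assembly of the mitoribosome 7 (30.4%) were lower and 0 higher (median −0.27), but 1 to 4 without WT replicate 2, WT replicate 3 or any 1 of the Hom livers. Nsun4, which methylates the small ribosomal RNA, had the smallest adjusted p at −0.64 (0.00451). Of 15 translation factors 6 (40.0%) were lower (median −0.20), led by Gfm1, the elongation factor that moves the ribosome along, with 85.6, 107 and 107 CPM in WT and 63.0, 49.5 and 57.3 CPM in Hom livers (−0.82, adjusted p = 0.00334). Of 20 genes that charge mitochondrial tRNAs 11 (55.0%) were lower (median −0.33), and 5 or 6 without WT replicate 2, Hom replicate 2 or Hom replicate 3. Their leader was Nars2, the asparaginyl-tRNA synthetase, with 20.9, 28.2 and 24.6 CPM in WT and 9.38, 9.89 and 9.87 CPM in Hom livers (−1.34, adjusted p = 0.000678). Of 12 genes that copy or transcribe mitochondrial DNA or process its RNA 6 were lower (median −0.32), and 3 without Hom replicate 2 or 3 or WT replicate 2, with Twnk, the replicative helicase, at −0.53 (adjusted p = 0.00551). None of the 70 genes of these 4 lists was higher.

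**Figure D5:**
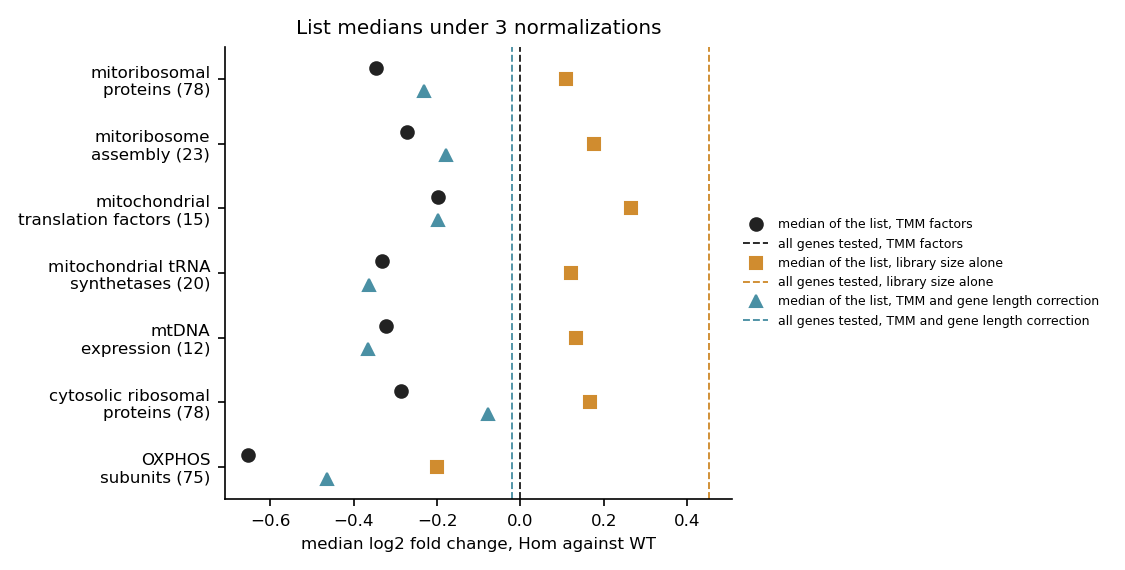
Median log2 fold change of Hom against WT for the mitoribosomal protein genes and 6 other lists (number of genes in brackets) under TMM factors, library size alone, and TMM factors with a gene length correction; dashed lines are the medians of all tested genes under each. The mitoribosomal median is −0.35, 0.11 and −0.23, on the low side of the all-gene line each time, and OXPHOS subunits lie lowest under each.

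Most lists of cell type markers also differed between the groups, where 20.1% of all tested genes were called lower and 21.5% higher. Of 30 hepatocyte markers 19 were lower and 1 higher, and their summed level was 196000 to 231000 CPM in WT and 95500 to 138000 CPM in Hom livers. Cholangiocyte markers (9 of 10 higher) summed to 72.7 to 104 CPM in WT and 635 to 890 CPM in Hom livers, and stellate cell markers (6 of 10 higher) to 299 to 368 and 739 to 834 CPM. Endothelial markers (5 of 10 lower) summed to 282 to 380 and 223 to 227 CPM, macrophage markers (2 of 10 lower, 2 higher) to 283 to 690 and 410 to 577 CPM, and lymphocyte markers (3 of 7 tested higher, of 9 listed) to 7.63 to 23.2 and 24.9 to 43.7 CPM. Macrophage markers were called at near the shares of all genes, and their summed levels overlapped between the groups. No marker was at 0 in all livers. Member counts per 1000 hepatocyte marker counts were 10.1, 10.0 and 12.5 in WT and 13.9, 18.5 and 15.9 in Hom livers. The part of cell makeup in the members' differences was not tested.

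In position, members lie on 17 chromosomes, and many stand head to head with another gene. A protein-coding gene on the opposite strand, with its start within 1000 bases, was found for 33 of the 78 (42.3%), against 15.0% of tested protein-coding genes (GENCODE M21). Of the 28 such partners that were tested and are not members themselves, 10 (35.7%) were lower and 1 was higher, where 20.1% of all tested genes were lower and 21.5% higher. Of the 21 lower members with such a partner, 4 had a partner called lower, and some of the partners were not tested. These 4 pairs were Mrpl14 with Tmem63b, Mrpl18 with Tcp1, Mrpl49 with Fau and Mrps12 with Sars2. Of all 30 tested partners 11 were lower, and those outside these 4 pairs face members that did not pass. Sars2 encodes the mitochondrial seryl-tRNA synthetase, and it stood at −0.62 beside −0.59 for Mrps12. Mrpl51 and its partner Ncapd2, a condensin subunit, were called in opposite directions, at −0.35 and 0.82 (adjusted p = 0.0322 and 0.0213). Some members that did not pass had a lower partner that encodes another mitochondrial protein, as Mrpl47 with Ndufb5 (−0.30 and −0.80), Mrpl36 with Ndufs6 (−0.20 and −0.66) and Mrpl43 with Twnk (−0.22 and −0.53). Mrps11 and Mrpl46, both members, face each other on chromosome 7, and Mrps11 was lower (−0.50, adjusted p = 0.0256) while Mrpl46 did not pass (−0.14, adjusted p = 0.398). Among the pairs named here, exons share bases in Mrps11 with Mrpl46, Mrpl43 with Twnk and Mrpl14 with Tmem63b. They also do in Mrpl18 with Tcp1, Mrpl47 with Ndufb5 and Mrpl36 with Ndufs6. The genes of a pair lie on opposite strands, and the strandedness of the counting is not given. If strand was not used, reads from the shared bases cannot be assigned with certainty.

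Members with a motif in the promoter were lower in 25 of 38 cases (median −0.40), and members with a promoter in the table and no motif in 12 of 31 (median −0.30). For NRF1 letters, 10 of 13 were lower, among them Mrpl17 (43.4, 43.5 and 47.3 CPM in WT, 33.3, 32.6 and 30.3 CPM in Hom livers), Mrpl9 (28.2, 29.4 and 28.4 CPM in WT, 18.4, 22.0 and 22.1 CPM in Hom livers) and Mrpl12. Mrpl32, with the same letters, had 18.5, 16.2 and 17.6 CPM in WT and 14.7, 15.6 and 15.9 CPM in Hom livers (−0.18, adjusted p = 0.175). For ETS letters 16 of 26 were lower, and for YY1 letters 3 of 5. The differences between these shares were not tested.

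Across the genome, 33 members share at least 1 exon base with another annotated gene, and 18 share over 10% of their exon bases. Mrpl23, Mrpl48 and Mrps36 have a named pseudogene, to which reads could be split, and none of these 3 passed the threshold (−0.12, −0.29 and −0.12).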

How the data were processed

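Liver RNA of 3 WT and 3 Hom mice was extracted with Trizol and sequenced on the DNBSEQ platform at BGI. The authors deposited estimated counts, FPKM and TPM per gene and liver. Per the labels' processing notes, HISAT2 2.0.4, Bowtie2 2.2.5, RSEM 1.2.12 and mm9 were used; annotation and strandedness are not given in the sources used here. The authors' FPKM served only to recover the implied gene length, and the authors' TPM only to compare levels between genes. Group mean columns, whose names are crossed, were not used.

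After rounding of the estimated counts, edgeR 4.0.16 under R 4.3.3 was used with filterByExpr, TMM factors, glmQLFit and glmQLFTest, and p-values were adjusted after Benjamini-Hochberg over 13805 genes with a threshold of 0.05. Standard errors were derived from the F statistic. Total counts were nearly equal between livers, while TMM factors ran from 0.806 to 1.23. Which genes depth limits was not tested. The procedure was tested on simulated data. WT and Hom livers carry the same replicate numbers but are different mice.

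Named were the 8 members with the lowest fold changes among those called (none was called higher), the 12 most counted of those not called, the 3 highest and 3 lowest in WT TPM, members whose name and place differ, mitoribosome proteins with other names, and, for each further list, the called gene with the lowest adjusted p. Members in further parts of the ribosome, in gene pairs, with shared exons or with promoter motifs were named after their values were seen. The members and lists were chosen with earlier results of these data known. Alternatives were DESeq2 1.42.0, scaling by library size alone or upper quartiles, a filter of 10 counts in each liver or none, a block for the replicate number, a loess correction for gene length, a minimum absolute log2 fold change of 0.5, and each liver left out in turn.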

Additional observations from a re-analysis of the deposited data

How the results depend on the processing

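The direction of the members' differences depends on the scaling. Under library size alone 2 members were lower and 9 higher with a median of 0.11, and 642 of all genes were lower and 6574 higher. The other mitoribosome proteins then had 0 lower and 1 higher, the assembly list 0 and 6, translation factors 1 and 1, genes that charge tRNAs 1 and 2, mtDNA genes 0 and 1, cytosolic ribosomal proteins 0 and 3, and OXPHOS subunits 23 lower. Upper-quartile factors gave the members 28 lower, 0 higher and a median of −0.26, where 2060 of all genes were lower and 3477 higher. They gave the assembly list 2 lower, tRNA charging 7 lower and 1 higher, mtDNA genes 3 and cytosolic ribosomal proteins 16 lower. With at least 10 counts in every liver, 1 tRNA charging gene was higher. The gene length correction gave the members 25 lower and a median of −0.23, and cytosolic ribosomal proteins 7 lower and 1 higher. A minimum absolute log2 fold change of 0.5 left 1698 of all genes, 12 members, 1 other mitoribosome protein, 1 assembly gene, 2 translation factors, 5 tRNA charging genes, 2 mtDNA genes and 4 cytosolic ribosomal proteins lower. Apart from the minimum fold, which can only remove calls, and the scaling and length corrections themselves, the cause was not tested.

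With the replicate number as a block, 34 members were lower (33 of the 42, and Mrps34), the assembly list had 2 lower, tRNA charging 7, mtDNA genes 3 and cytosolic ribosomal proteins 21. The block with the length correction gave 21 members lower (20 of the 42, and Mrpl35) at a median of −0.23, 1 other mitoribosome protein, 3 assembly genes and 2 cytosolic ribosomal proteins. No pairing by number was seen in the values. Deviations of same-numbered livers correlated at −0.109, −0.0563 and −0.0494, and 0 of 6 livers were closest to their own number in the other group. Such values cannot show whether same-numbered mice share a litter or batch, which the sample titles do not say.

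Leaving out 1 liver at a time gave 23 to 46 members lower, and 0 higher, at a median of −0.38 to −0.31. The ranges of the number lower were 1767 to 2750 for all genes, 2 to 4 for the other mitoribosome proteins, 1 to 6 for assembly (1 without WT replicate 2), 4 to 7 for translation factors, 5 to 13 for tRNA charging (5 without Hom replicate 3, and 0 to 1 higher), 3 to 5 for mtDNA genes, 13 to 46 for cytosolic ribosomal proteins (13 without Hom replicate 3) and 72 to 74 for OXPHOS subunits.

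For 43 named genes under each alternative but the minimum fold change, which was applied to counts only, 602 results were compared, of which 514 kept direction and side of the threshold, 40 lost the call, 13 gained one and 35 changed sign. Under library size alone the sign changed for Mrpl24 (0.26), Mrpl50 (0.40), Mrps2 (0.36), Mrpl42 (0.38), Mrpl4 (0.18), Mrpl43 (0.22), Mrps31 (0.094), Mrpl20 (0.13), Mrps17 (0.24), Mrps15 (0.26), Mrpl45 (0.24), Mrpl12 (0.040), Mrpl52 (0.14), Mrps21 (0.11), Mrps25 (0.14), Mrpl35 (0.22), Mrps18a (0.27), Mrps18c (0.15), Mrps30 (0.054), Mrps36 (0.32), Dap3 (0.38), Ptcd3 (0.080) and Chchd1 (0.084). Upper-quartile factors changed it for Mrpl50 (0.037), Mrpl42 (0.011) and Dap3 (0.0071). The length correction, without and with the block, changed it for Mrpl42 (0.14 and 0.15), Mrpl52 (0.0077 and 0.011), Mrpl19 (−0.019 and −0.020) and Mrps36 (0.089 and 0.093). With 1 liver left out, Dap3 ran from −0.16 to 0.010 (the latter without WT replicate 2). Mrps25 lost its call in 5 of the 6 fits that left out a liver. Mrpl12 lost its call without Hom replicate 2 or Hom replicate 3, and Mrpl52 under upper-quartile factors. These are not all of the 40 lost calls.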

Other observations

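Not every gene of mitochondrial translation stood below WT. Pars2, the mitochondrial prolyl-tRNA synthetase, had 2.12, 1.86 and 2.83 CPM in WT livers and 4.53, 3.30 and 3.36 CPM in Hom livers. All Hom livers were above all WT livers, and the log2 fold change was 0.71 (standard error 0.25), without passing the threshold (edgeR adjusted p = 0.0548). Mettl15, a methyltransferase of the small ribosomal RNA, showed the same order, with 2.35, 3.34 and 3.63 CPM in WT and 4.99, 3.75 and 4.48 CPM in Hom livers (0.51, adjusted p = 0.117). Both genes were chosen after their values were seen and are weakly counted, with 29 to 107 counts per liver.

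Well-counted mitochondrial translation factors were lower in part. Tufm, the elongation factor that delivers charged tRNAs, had 103, 114 and 124 CPM in WT and 96.2, 82.7 and 85.0 CPM in Hom livers, a fall in every Hom liver (−0.37, adjusted p = 0.0259). Lrpprc, which stabilises mitochondrial messenger RNAs, had 98.6, 110 and 114 CPM in WT and 87.2, 70.6 and 74.0 CPM in Hom livers (−0.48, adjusted p = 0.0124). Its binding partner Slirp overlapped between the groups (−0.07, adjusted p = 0.634).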
